A study of Drosophila melanogaster with 10 samples.

Results

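The comparison described here sets 3 libraries labelled brat-KD Spt5-KD against 4 libraries of Brat-depleted cells labelled brat-KD, 7 of the 10 libraries of the series, across every gene of the count table. The former are written brat-KD/Spt5-KD below. The members were chosen by genotype label alone. Cells of the type II neuroblast lineages (NB II) of larval brains expressed mCD8::GFP under wor-GAL4 with ase-GAL80, and both genotypes shared this driver, this marker and a UAS transgene against brat. The brat-KD/Spt5-KD cells carried in addition a UAS siRNA against Spt5. The driver wor-GAL4 is active in neuroblasts of type I and type II, and ase-GAL80 blocks it where Ase is made, which leaves expression to NB II. Larvae were 96 h old by the labels, although the study's methods for isolating the cells state another age, in days. Cells were sorted from dissociated brains by side scatter, forward scatter and GFP intensity. The labels call the sorted cells type II neuroblasts and their descendants, and the share of each was not measured. The remaining 3 libraries are from control NB II, which carried the driver and the marker without a knockdown transgene, and serve here as a background level, with no test. The labels do not say whether replicates came from separate dissections, and p-values measure only the spread between these libraries.

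NB II are neural stem cells of the dorsomedial larval brain. They divide asymmetrically to renew themselves and to give intermediate neural progenitors (INPs), which in turn produce ganglion mother cells, neurons and glia. Brat, a TRIM-NHL translational repressor, is passed to the INP and ends self-renewal there. When it is lost, immature INPs revert to NB II-like cells and a tumor forms. Spt5 forms the DSIF complex with Spt4, travels with RNA polymerase II, takes part in promoter-proximal pausing and in elongation, and binds Myc in human cells.

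The libraries with the brat-KD/Spt5-KD label held 3830183, 4780947 and 2158058 counts, against 5432145 to 7409954 in brat-KD, and 7544, 10819 and 9252 genes had at least 1 count, against 9680 to 11371. Expression is given as CPM, counts scaled to a common library size after TMM normalization in edgeR, and a log2 fold change is that of libraries with the brat-KD/Spt5-KD label over brat-KD. Every adjusted p is from edgeR's quasi-likelihood test across all genes tested, with Benjamini-Hochberg adjustment, and a gene rose or fell where it was under 0.05. The sources name no molecular identifier, so that reads amplified by PCR are not independent molecules. In bulk RNA of sorted cells, fewer cells of a type and less RNA per cell cannot be told apart. Across genes, replicates 2 and 3 of brat-KD/Spt5-KD had a Spearman correlation of 0.932, replicate 1 correlated with them at 0.793 and 0.794, and brat-KD libraries correlated with each other at 0.9596 to 0.9797. Counts by class are therefore given both ways, with and without replicate 1, and every gene described below as risen or fallen was called in the same direction without it. Genes chosen by rule for a large change, or as called members of a list, had to show no overlap between the libraries of the genotypes. In the annotation 8937 of 17549 annotated genes of the table overlap another gene, whose reads their counts can hold, and the number of overlapping genes is given for the genes named that overlap at least 3.

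The transcript aimed at did not follow the label. Spt5 had 205, 116 and 584 CPM in brat-KD/Spt5-KD replicates 1, 2 and 3 and 139, 165, 135 and 128 CPM in brat-KD replicates 1 to 4. Replicate 2 alone lay below the brat-KD range, replicates 1 and 3 lay above it, and the log2 fold change was 1.06 (standard error 0.45, edgeR adjusted p = 0.169). Without replicate 1 it was 1.29 (edgeR adjusted p = 0.0238), and without replicate 3, the library with 584 CPM, 0.16 (edgeR adjusted p = 0.748). The transcript of brat, which both genotypes target and which overlaps 4 genes, had 290.4, 107 and 236 CPM versus 156, 129.8, 214 and 186 CPM, with libraries that overlap (log2 fold change 0.27, edgeR adjusted p = 0.657), and 880.5 to 1002 CPM in control NB II. The Spt4 gene spt4, named here for its place in DSIF, had 0, 49.8 and 61.5 CPM versus 22.4 to 35.4 CPM.

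Of 8750 genes tested, 517 rose (5.91%) and 500 fell (5.71%) in libraries with the brat-KD/Spt5-KD label. Without replicate 1, 1247 of 9158 rose (13.6%) and 1161 fell (12.7%), and 511 of the 517 and 500 of the 500 were called again in the same direction. Without replicate 2 or 3 of brat-KD/Spt5-KD, 331 and 382 rose and 413 and 359 fell. Leaving out a brat-KD library gave 195, 266, 253 and 259 raised and 139, 246, 162 and 179 lowered genes (without replicates 1, 2, 3 and 4). The median log2 fold change over all genes tested was −0.049. Classes with a larger share of raised genes than the whole table included the respiratory chain complexes, the proteasome, the spliceosome and mitochondrial ribosomal proteins. Those with a larger share of lowered genes included neuroblast genes, cyclins, amino acid transporters, insulin and TOR signaling and the Polycomb and Trithorax groups.

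The largest increases that held without replicate 1 were in genes that brat-KD cells hardly expressed. Arc1, whose protein forms capsids that carry its own mRNA, had 849, 504 and 253 CPM in replicates 1 to 3 against 0 to 2.54 in brat-KD, and the neighboring pseudogene CR10102 had 323, 150.3 and 60.001 CPM. In CR10102 every brat-KD library had at most 3 counts, so that it was at least 369-fold higher. All 3 libraries of both genes lay far above brat-KD, with replicate 1 highest and replicate 3 lowest. Col4a1, a type IV collagen chain of basement membranes (2L:5029609-5037279 in BDGP6), had 80.8, 69.3 and 71.1 CPM versus 0 to 1.22 (log2 fold change 6.35, standard error 0.71, edgeR adjusted p = 0.002399). Its 3 libraries agreed closely with each other. The FGF ligand bnl (3R:19794073-19836817 in BDGP6) had 73.5, 109 and 126 CPM versus 2.37 to 11.6 and 0.208 to 0.883 in control NB II (log2 fold change 3.99, edgeR adjusted p = 0.00349). rdog had 136, 183 and 161 CPM versus 3.43 to 9.96 (log2 fold change 4.56, edgeR adjusted p = 0.00218). For bnl and rdog, too, the lowest library with the brat-KD/Spt5-KD label was several times the highest of brat-KD. Mdr49, an ABC transporter of the P-glycoprotein type, Tep4, a thioester-containing protein of innate immunity, and Toll-6, a receptor of the Toll family, rose by 4.23, 3.94 and 3.69 on the log2 scale. In these 3 genes replicate 1 was the highest library, with 109.5, 152 and 169.6 CPM, and the increases without it were 3.88, 3.35 and 3.19. The noncoding RNA lncRNA:CR43264 had 100.1, 237 and 162 CPM versus 3.49 to 16.2 (log2 fold change 3.99, edgeR adjusted p = 0.00393).

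kl-5, a dynein heavy chain gene of the Y chromosome, had 169.8, 493 and 246 CPM versus 2.03 to 6.81 in brat-KD and 46.4 to 112 in control NB II (log2 fold change 6.07, standard error 0.54, edgeR adjusted p = 0.00218). Of 8 Y-linked genes tested, 5 rose, namely kl-5, kl-3, ORY, CCY and WDY, and 3 did not pass the test, namely kl-2, Ppr-Y and FDY. FDY had 40.7, 93.5 and 94.8 CPM versus 67.9 to 88.003 and Ppr-Y 136, 135 and 92.3 against 95.9 to 180.1, so that libraries of both genes reached into the brat-KD range or lay on both sides of it. kl-5 and CCY kept the call with every library left out in turn, and kl-3, ORY and WDY lost it without brat-KD/Spt5-KD replicate 2 and without brat-KD replicate 1 or 2, kl-3 and WDY also without brat-KD replicate 3 or 4 (adjusted p up to 0.108). lncRNA:roX1, an RNA of the male dosage compensation complex, fell, with 395, 264 and 693 CPM versus 819.6 to 1071 (log2 fold change −1.12, edgeR adjusted p = 0.04296), and this call was lost without brat-KD/Spt5-KD replicate 2 (adjusted p = 0.0856) and without each brat-KD library (0.0992 to 0.1396). Of 7 dosage compensation genes tested, 1 fell and none rose (14.3% lowered, against 5.71% of all genes). Fold changes were below 0 in 6 and above 0 in 1, and 4 fell without replicate 1. Their summed CPM was 649, 464 and 975 in replicates 1, 2 and 3 against 1172 to 1465 in brat-KD. The labels give no sex for the larvae.

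Among the 10 largest decreases were foxo, mnd and path, described below, and several genes with no role given here. Cpr64Ac, a cuticle protein gene within CG43367, had 0, 0.217 and 19.2 CPM versus 113 to 233, and CG43367 itself, which overlaps 6 genes, had 14.8, 21.2 and 44.9 against 139 to 257. Cuticle protein genes as a list did not share this decrease, since of 9 tested 1 rose and 1 fell with a median of 1.18, and of 12 tested without replicate 1, 3 rose and 1 fell. snu, an ABC transporter of the cuticle barrier, had 0, 4.55 and 5.55 CPM versus 55.4 to 74.4 (log2 fold change −4.34, edgeR adjusted p = 0.01599). CG9993 had 0, 5.63 and 18.2 CPM versus 59.3 to 112, and CG3829 0, 6.71 and 10.6 against 44.8 to 87.8. Replicate 1 had no read of snu, CG9993, CG3829 or Cpr64Ac. Without it they fell by 3.71, 3.09, 2.87 and 4.69 on the log2 scale, with edgeR adjusted p-values of 7.11e-06, 1.65e-04, 1.29e-04 and 4.90e-04. All 4 calls were lost without brat-KD replicate 1, 3 or 4, and those of CG9993, CG3829 and Cpr64Ac also without brat-KD replicate 2 or brat-KD/Spt5-KD replicate 2, with adjusted p-values up to 0.135. CG3829 was lost without brat-KD/Spt5-KD replicate 3 as well. CG12643 and CG15646, of no role given here, fell by 3.24 and 2.63 (edgeR adjusted p = 0.005296 and 0.00634) and kept the call with every single library left out.

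**Figure D1:**
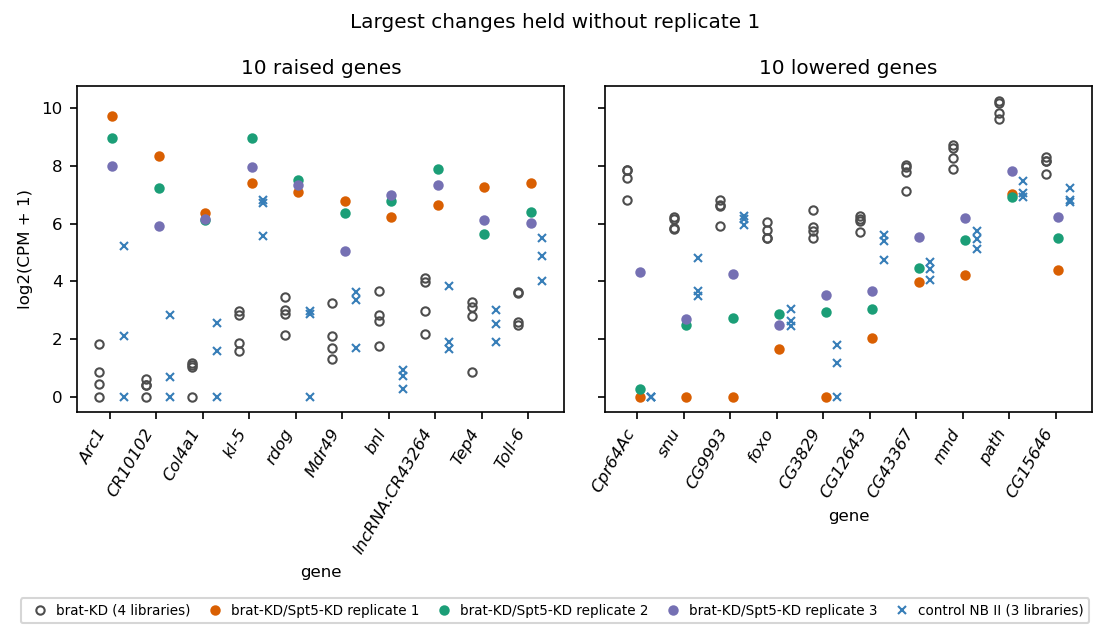
Points give log2(CPM + 1) in each library for the 10 raised genes (left) and the 10 lowered genes (right) with the largest change that held without replicate 1. Open circles are the 4 brat-KD libraries, filled circles the 3 libraries with the brat-KD/Spt5-KD label by replicate and crosses the 3 control NB II libraries. No filled circle reaches the open circles of its gene, which was a condition of the choice. Replicate 1 is at 0 CPM for Cpr64Ac, snu, CG9993 and CG3829.

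Many genes of the respiratory chain rose and none fell. Of 33 tested subunits and assembly genes of complex I, which takes electrons from NADH, 15 rose and 0 fell, and the median log2 fold change was 0.92. Of 36 genes of complexes III, IV and V (cytochrome c reductase, cytochrome c oxidase and ATP synthase), 19 rose and 0 fell, with a median of 0.97. The fold change was above 0 in 32 of the 33 and 34 of the 36, and the shift was smaller in replicate 1 than in replicates 2 and 3. The median difference from the brat-KD mean was 0.50, 1.06 and 1.02 in replicates 1, 2 and 3 for complex I and 0.38, 1.403 and 1.32 for complexes III to V. Without replicate 1, 27 of 34 and 29 of 36 rose. These counts were 7 without either replicate 2 or replicate 3 and 4 to 9 without any 1 brat-KD library for complex I and 10 without replicate 2, 12 without replicate 3 and 11 to 13 without any 1 brat-KD library for complexes III to V.

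levy, a subunit of cytochrome c oxidase, had 334, 586 and 541 CPM versus 102 to 136 in brat-KD and 134 to 275 in control NB II (log2 fold change 1.93, standard error 0.22, edgeR adjusted p = 0.00259). COX7A of the same complex (3R:8339944-8341043 in BDGP6) had 346, 676 and 637 CPM versus 128 to 168 (log2 fold change 1.88, edgeR adjusted p = 0.00393), and ATPsynE, a subunit of ATP synthase, 260.3, 539 and 375 against 90.2 to 138 (log2 fold change 1.701, edgeR adjusted p = 0.00658). In all 3 genes replicate 1 lay between brat-KD and the other 2 libraries. Complex I subunits ND-49 and ND-B15 had 287, 283 and 208 CPM versus 65.8 to 100.1 and 71.1, 106 and 77.1 against 15.5 to 32.5, with log2 fold changes of 1.67 and 1.67 (edgeR adjusted p = 0.00341 and 0.0129). For ND-49 replicate 1 was as high as replicate 2. ND-B14.7 had 65.9, 193 and 236 CPM versus 45.4 to 65.6, and its call (edgeR adjusted p = 0.0312) was lost without any 1 library other than replicate 1, at up to 0.106. Of 18 genes of the tricarboxylic acid cycle and pyruvate dehydrogenase, 3 rose and 1 fell, and 6 rose and 2 fell without replicate 1. The raised ones were SdhC and SdhD, the membrane anchors of succinate dehydrogenase, which is also complex II of the chain, and Pdhb of pyruvate dehydrogenase, with log2 fold changes of 1.07, 0.88 and 0.86. Ogdh, of the 2-oxoglutarate dehydrogenase complex, which overlaps 3 genes, fell by 0.73 (edgeR adjusted p = 0.0254) and lost the call without brat-KD/Spt5-KD replicate 2 or any 1 brat-KD library. The raised count of this list was 0 without either replicate 2 or replicate 3 and 0 to 1 without any 1 brat-KD library.

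Mitochondrial ribosomal proteins, which translate the few proteins coded by mitochondrial DNA, were higher in replicates 2 and 3 but not in replicate 1. Of 73 tested, 9 rose and none fell (median 0.67). Without replicate 1, 40 rose and 1 fell, where 13.6% of all genes rose and 12.7% fell. Their medians were 0.031, 0.90 and 0.79 in replicates 1, 2 and 3. mRpS17 had 78.4, 101 and 94.3 CPM versus 19.8 to 36.8 (log2 fold change 1.65, edgeR adjusted p = 0.007503), and mRpS34 84.3, 99.2 and 78.7 against 24.1 to 39.3 (log2 fold change 1.43, edgeR adjusted p = 0.00934). In both genes the libraries of the genotypes stood well apart. The raised count was 3 without either replicate 2 or replicate 3 and 2 to 4 without any 1 brat-KD library.

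The proteasome, which degrades proteins marked with ubiquitin, showed the same kind of shift. Of 32 subunits, 12 rose and none fell (median 0.69), and without replicate 1, 30 rose. The medians in replicates 1, 2 and 3 were 0.26, 1.003 and 0.86. Prosbeta1, a catalytic subunit of the core particle, had 332, 431 and 344 CPM versus 109 to 159 (log2 fold change 1.42, edgeR adjusted p = 0.00393), and Rpt2, an ATPase of the regulatory particle, 297, 492 and 318 against 128 to 192 (log2 fold change 1.16, edgeR adjusted p = 0.0151). Replicate 2 was the highest library for each. The raised count was 8 without replicate 2, 9 without replicate 3 and 6 to 9 without any 1 brat-KD library.

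**Figure D2:**
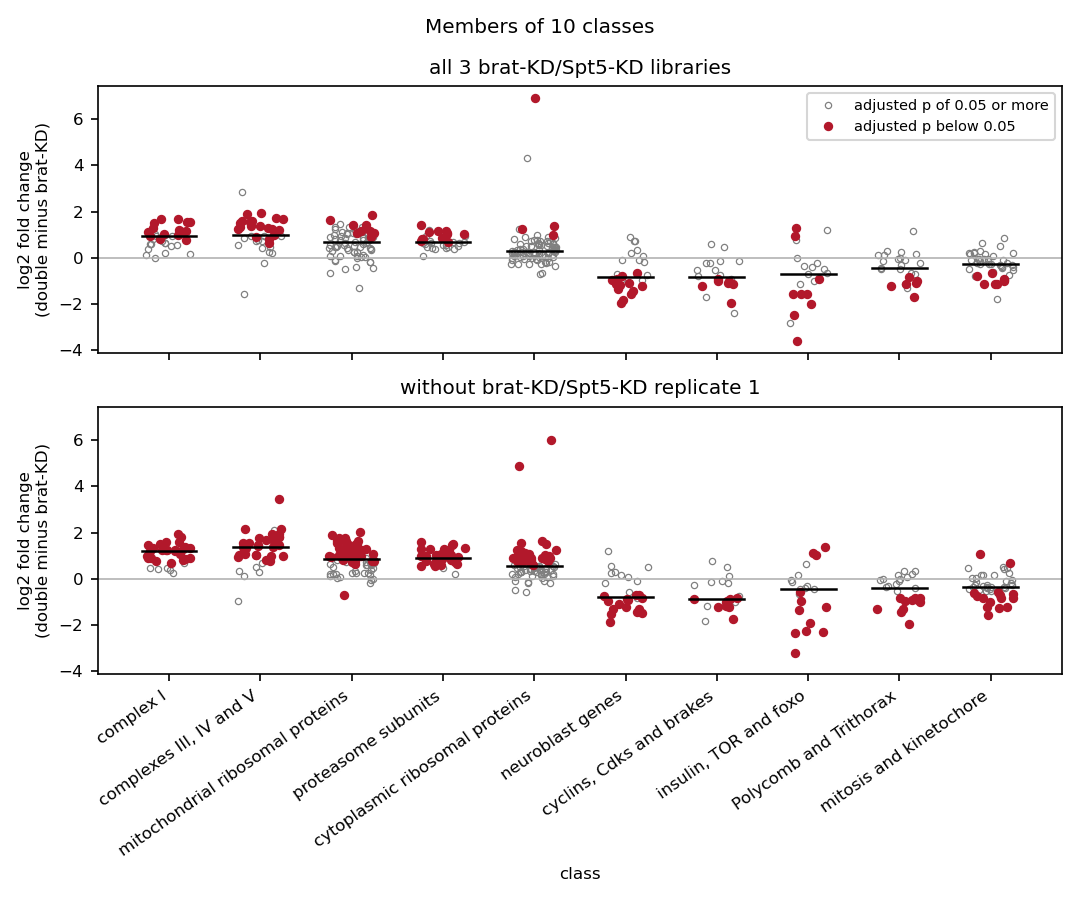
Each point is the log2 fold change of 1 tested member of a class, with all 3 libraries with the brat-KD/Spt5-KD label (top) or without replicate 1 (bottom). Filled points passed an adjusted p of 0.05 and bars are medians. In complex I, 15 of 33 points are filled at the top and 27 of 34 at the bottom, all above 0, while the filled points of neuroblast genes, cyclins and Polycomb and Trithorax genes all lie below 0.

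Transcript length moved with these classes. When the tested protein-coding genes were split into 10 bins by exonic length, the median log2 fold change ran from 0.56 in the shortest bin (193 to 897 bases) to −0.39 in the longest. In the shortest bin 91 genes rose and 5 fell, and in the longest 54 rose and 139 fell. Replicates 2 and 3 carried this slope, with 0.80 and 0.77 in the shortest and −0.54 and −0.52 in the longest bin, and replicate 1 did not, with −0.064 and −0.14. The respiratory and ribosomal classes are short, and the Polycomb, adhesion and neuronal classes are long. Genes from the same length bins as the complex I genes were raised in 9.01% of cases, against 45.5% of the complex I genes, and the same shares were 8.63% and 52.8% for complexes III to V, 6.25% and 37.5% for the proteasome and 9.11% and 12.3% for mitochondrial ribosomal proteins. These shares are from the fit with all libraries. Without brat-KD/Spt5-KD replicate 1, 282 of 817 genes of the shortest bin rose and 192 of 815 of the next. In these bins lay 63 of 82 cytoplasmic and 62 of 73 mitochondrial ribosomal proteins. The part of transcript length in these results was not tested.

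**Figure D3:**
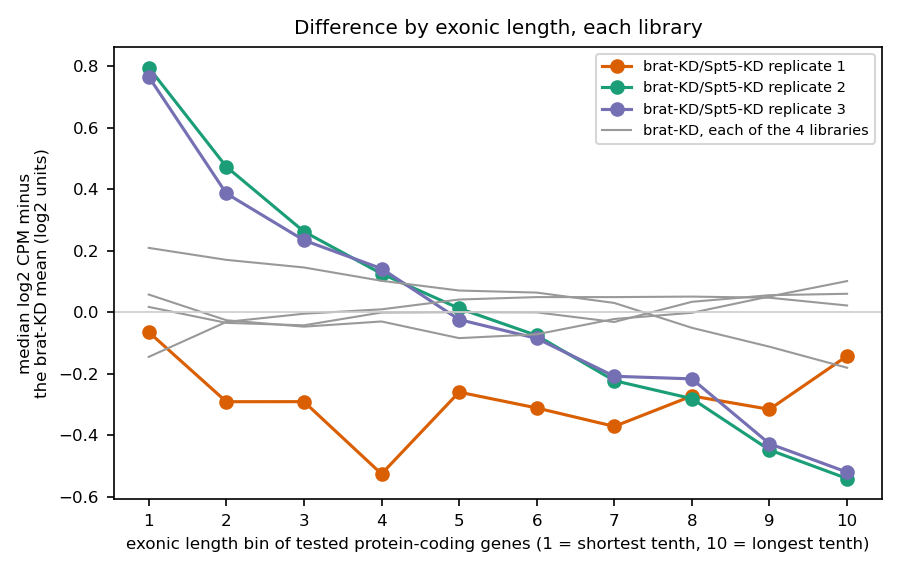
Lines give, for each of 10 bins of tested protein-coding genes by exonic length, the median log2 CPM of a library minus the brat-KD mean. Colored lines are the 3 libraries with the brat-KD/Spt5-KD label and gray lines the 4 brat-KD libraries. Replicates 2 and 3 fall from 0.80 and 0.77 in bin 1 to −0.54 and −0.52 in bin 10, and replicate 1 stays below 0 in every bin.

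Few cytoplasmic ribosomal proteins passed the test. Of 82 tested, 4 rose and none fell, or 4.88% against 5.91% of all genes, with a median of 0.28. Without replicate 1, 34 rose, where 13.6% of all genes rose. The medians in replicates 1, 2 and 3 were −0.20, 0.53 and 0.65. The brat-KD libraries themselves had medians of −0.31, 0.47, 0.047 and −0.24 (replicates 1 to 4). Replicate 1 of brat-KD/Spt5-KD thus lay within the brat-KD range, and its replicates 2 and 3 lay above it. RpL22-like, a paralog of RpL22 known from the germ line, had 25.7, 5.197 and 8.57 CPM versus 0 to 0.349, at most 2 counts in a brat-KD library, and was at least 27.3-fold higher (edgeR adjusted p = 0.0142). RpL38 had 313, 451 and 742 CPM versus 162 to 240.1 and 560.04 to 824 in control NB II (log2 fold change 1.37, edgeR adjusted p = 0.0165), a call lost without brat-KD replicate 1, 3 or 4. RpL29 and RpL34a, the other 2, lost it without brat-KD/Spt5-KD replicate 2 or 3 as well. The count of raised ribosomal proteins was 2 without either replicate 2 or replicate 3 and 1 to 5 without any 1 brat-KD library. Of 61 genes of ribosome biogenesis and RNA polymerase I, none rose and 2 fell, or 3.28% against 5.71% of all genes, and 4 rose and 4 fell without replicate 1. The 2 were Non1, a nucleolar GTPase, and Nopp140, a nucleolar chaperone, which fell by 1.06 and 0.81. Both calls were lost without brat-KD replicate 1, 2 or 3, Non1 also without brat-KD/Spt5-KD replicate 2 and Nopp140 without brat-KD/Spt5-KD replicate 3 or brat-KD replicate 4 (edgeR adjusted p up to 0.106). eEF1alpha1, the main elongation factor that brings aminoacyl-tRNA to the ribosome, had 7654, 6083 and 8075 CPM versus 11218 to 17928 (log2 fold change −0.9996, edgeR adjusted p = 0.0407), and only the fit without replicate 1 kept the call among those that left out a library.

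RNA processing and RNA polymerase II genes rose in part. Of 26 core spliceosome genes 8 rose and 2 fell (median 0.37), and 14 rose and 2 fell without replicate 1. Prp31, of the U4/U6 particle, had 436, 346 and 312 CPM versus 90.3 to 146 (log2 fold change 1.59, edgeR adjusted p = 0.00376) and snRNP-U1-C, of the U1 particle, 90.4, 80.8 and 98.3 against 30.1 to 46.4 (log2 fold change 1.301, edgeR adjusted p = 0.0108). U4-U6-60K, also of the U4/U6 particle, and Sf3b3, of the U2 particle, fell by 1.07 and 0.99, so that members of one machine went both ways. Sf3b3 overlaps 10 genes and lost the call without brat-KD replicate 1 or 3, and U4-U6-60K without brat-KD/Spt5-KD replicate 3 or brat-KD replicate 1, 2 or 3. The raised count was 3 without replicate 2, 4 without replicate 3 and 2 to 4 without any 1 brat-KD library. Of 13 RNA polymerase II subunits 4 rose and none fell, and 6 rose and 1 fell without replicate 1. Polr2B, a subunit of the catalytic core, had 596, 514 and 477 CPM versus 232 to 268 and 272 to 279.7 in control NB II (log2 fold change 1.09, standard error 0.15, edgeR adjusted p = 0.00412), the only one of the 4 that kept the call with every library left out in turn. The count was 1 without either replicate 2 or replicate 3 and 1 without any 1 brat-KD library.

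Of 23 factors of pausing and elongation, 1 rose and 1 fell (4.35% each, against 5.91% and 5.71% of all genes). Without replicate 1, 3 of them rose and 6 fell, where 13.6% of all genes rose and 12.7% fell. Ssrp, a subunit of the histone chaperone FACT, had 768, 878 and 892 CPM versus 476 to 574 (log2 fold change 0.66, edgeR adjusted p = 0.0252), and Su(Tpl), the elongation factor ELL, which overlaps 3 genes, 109.99, 146 and 154 against 208 to 246 (log2 fold change −0.75, edgeR adjusted p = 0.0309). Both calls were lost without brat-KD/Spt5-KD replicate 2 or any 1 brat-KD library, Ssrp also without replicate 3 (adjusted p up to 0.102). Of 29 Mediator subunits, which link activators to RNA polymerase II, none rose and 2 fell, 6.90% against 5.71% of all genes. The median was 0.31. Without replicate 1, 7 rose and 4 fell, where 13.6% of all genes rose and 12.7% fell. skd, the Med13 subunit of the kinase module, which overlaps 4 genes, had 50.4, 36.2 and 55.5 CPM versus 109.9 to 178 (log2 fold change −1.64, edgeR adjusted p = 0.00659), and MED23 fell by 0.80 at an edgeR adjusted p of 0.0498. MED23 lost the call without any 1 library other than brat-KD/Spt5-KD replicate 1. Of 25 Polycomb and Trithorax genes, which keep genes silent or active through cell divisions, none rose and 6 fell, namely osa, ash1, pho, ph-d, ash2 and trr (median −0.45), and 11 fell without replicate 1. ash1, a histone methyltransferase, and pho, a DNA-binding Polycomb recruiter that overlaps 7 genes, fell by 1.23 and 1.15. osa, of the Brahma remodeling complex, had 210.1, 93.3 and 168 CPM versus 382 to 619 (log2 fold change −1.698, edgeR adjusted p = 0.00942) and was the only one of the 6 to keep the call with every library left out. The medians of the list in replicates 1, 2 and 3 were −0.39, −0.61 and −0.44, and the lowered count was 3 without replicate 2, 2 without replicate 3 and 1 to 2 without any 1 brat-KD library. These genes are long, and genes of their length bins fell in 10.3% of cases against 24.0% of the list.

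Many neuroblast genes fell and none rose. Of 26 genes that mark neuroblasts or their asymmetric division, 13 fell and none rose (median −0.85), and 15 fell without replicate 1. All 3 libraries shifted alike, with medians of −0.77, −0.73 and −0.64. The noncoding RNA lncRNA:cherub, which promotes the growth of brat tumors (3R:11247631-11256123 in BDGP6), had 7814, 9422 and 9105 CPM versus 40168, 37701, 28745 and 29434 in brat-KD and 10881 to 13546 in control NB II (log2 fold change −1.97, standard error 0.29, edgeR adjusted p = 0.00581). Its 3 libraries lay below every control library. The summed CPM of the list was 13420.3, 15204 and 15309 against 37436 to 48984, most of it from lncRNA:cherub. insc, the adaptor that orients the spindle, had 51.8, 98.5 and 129.6 CPM versus 287 to 376 (log2 fold change −1.83, edgeR adjusted p = 0.007596), and nab, a transcriptional cofactor, 86.9, 159 and 209 against 404 to 531 (log2 fold change −1.598, edgeR adjusted p = 0.0107). For both, replicate 1 was the lowest library. Not every neuroblast gene followed. dpn, a self-renewal factor that overlaps 3 genes, had 16.02, 115 and 154 CPM versus 144 to 171, so that replicate 1 lay far below and the other 2 libraries in or near the brat-KD range (edgeR adjusted p = 0.479, and 0.492 without replicate 1). ase, which INPs switch on and NB II lack, had 19.8, 23.8 and 31.3 CPM versus 10.8 to 38.5 and 58.97 to 71.96 in control NB II (log2 fold change 0.34, edgeR adjusted p = 0.748). The lowered count of the list was 12 without replicate 2, 9 without replicate 3 and 5 to 9 without any 1 brat-KD library, and genes of its length bins fell in 8.58% of cases against 48.0% of its coding members.

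Temporal identity genes set which cells a neuroblast makes at each larval age. Of 17 tested, 3 fell and none rose, and without replicate 1, 7 fell and 1 rose. These genes are long, and genes of their length bins fell in 13.1% of cases against 17.6% of the list. chinmo, a transcription factor of early larval neuroblasts, had 108, 139 and 101 CPM versus 287 to 363 in brat-KD and 245 to 347 in control NB II (log2 fold change −1.49, standard error 0.19, edgeR adjusted p = 0.00353). Syp, an RNA-binding protein of late larval neuroblasts, had 1062, 495 and 868 CPM versus 2603 to 4034 (log2 fold change −2.104, edgeR adjusted p = 0.00493). Both were below brat-KD in all 3 libraries, which for Syp was a condition of its choice. Eip75B, an ecdysone-induced nuclear receptor that overlaps 5 genes, fell by 0.95 (edgeR adjusted p = 0.0295), and lost the call without brat-KD/Spt5-KD replicate 2 or 3 and without brat-KD replicate 1, 3 or 4. Imp, the IGF-II mRNA-binding protein that opposes Syp in time, had 373, 942 and 545 CPM versus 622 to 1089, and the libraries overlapped (log2 fold change −0.49, standard error 0.34, edgeR adjusted p = 0.407). It remained far above its level in control NB II, 14.2 to 45.4 CPM. No INP gene of 14 passed the test, and 2 rose without replicate 1, where 13.6% of all genes rose. In that fit 7 fold changes of INP genes were above 0 and 7 below. The libraries were split on this list, with medians of 0.64, −0.77 and 0.70 and summed CPM of 1068, 393 and 829.9 in replicates 1, 2 and 3 against 454 to 554 in brat-KD, so that replicate 2 lay opposite to the other replicates. tap, the most abundant of them, had 166, 157 and 196 CPM versus 80.5 to 141 (log2 fold change 0.61, edgeR adjusted p = 0.102, and 0.04098 without replicate 1).

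Several cell cycle regulators fell, and most of the replication machinery did not pass the test. Of 20 cyclins, Cdks and brakes, 7 fell and none rose (median −0.86), with medians of −0.73, −0.76 and −0.78 in replicates 1, 2 and 3. CycB3, a mitotic cyclin (3R:24867934-24870816 in BDGP6), had 78.2, 139 and 131 CPM versus 403 to 497 in brat-KD and 115 to 188 in control NB II (log2 fold change −1.98, standard error 0.24, edgeR adjusted p = 0.00282). stg, the Cdc25 phosphatase that admits cells to mitosis, had 115, 80.8 and 136 CPM versus 171 to 305 (log2 fold change −1.22, edgeR adjusted p = 0.0199), and CycA, a cyclin of S phase and mitosis, 182, 343 and 292 against 468 to 674 (log2 fold change −1.14, edgeR adjusted p = 0.02104). All 3 genes were below brat-KD in every library, as their choice required. Both stg and CycA lost the call without brat-KD replicate 1, 3 or 4. The call of stg was also lost without brat-KD/Spt5-KD replicate 2 and that of CycA without replicate 3 (adjusted p up to 0.0716). The lowered count was 9 without replicate 1, 4 without replicate 2, 6 without replicate 3 and 1 to 7 without any 1 brat-KD library. Of 44 genes of mitosis and the kinetochore, 8 fell and none rose, and 13 fell and 2 rose without replicate 1. The outer kinetochore scaffold Spc105R had 84.3, 64.5 and 61.01 CPM versus 139 to 168 (log2 fold change −1.14, edgeR adjusted p = 0.00881), and mars, a spindle protein, fell by 1.15 (edgeR adjusted p = 0.0139), a call lost without brat-KD replicate 1 or 3. This count was 4 without replicate 2, 6 without replicate 3 and 1 to 3 without any 1 brat-KD library. Of 40 replication genes, 2 rose and 1 fell (3 and 2 without replicate 1), shares below the 5.91% and 5.71% of all genes, and PCNA, the sliding clamp, had 675, 1212 and 809 CPM versus 376 to 541 (log2 fold change 0.98, edgeR adjusted p = 0.0278). Only the fit without replicate 1 kept the calls of PCNA and of Top2, the DNA topoisomerase that fell by 0.78, among those that left out a library.

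Myc and some of its partners fell. Myc, which drives growth and ribosome production, had 117, 245 and 178 CPM in replicates 1 to 3 against 389.6 to 567 in brat-KD and 68.3 to 99.1 in control NB II (log2 fold change −1.33, edgeR adjusted p = 0.0173), a call lost without brat-KD replicate 1 (adjusted p = 0.0569) or brat-KD/Spt5-KD replicate 3 (0.0549). Mondo, a glucose-responsive factor that overlaps 12 genes, had 37.9, 27.5 and 28.7 CPM versus 71.1 to 122 (log2 fold change −1.54, edgeR adjusted p = 0.00987). Mnt, a repressor that competes with Myc for Max, had 14.1, 11.7 and 19.7 against 34.7 to 53.8 (log2 fold change −1.56, edgeR adjusted p = 0.0269), a call lost without brat-KD/Spt5-KD replicate 2 or any brat-KD library. With Myc these made 3 of 8 network genes, and none rose. Their count was 3 without replicate 1, 2 without either replicate 2 or replicate 3 and 1 to 2 without any 1 brat-KD library.

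Genes of insulin and TOR signaling changed in both directions, with more that fell. Of 21 tested, 7 fell and 2 rose (median −0.69), and without replicate 1, 9 fell and 3 rose. foxo, the transcription factor that insulin signaling holds out of the nucleus, had 2.12, 6.28 and 4.54 CPM versus 53.9, 44.6, 44.2 and 65.2 in brat-KD and 4.48 to 7.298 in control NB II (log2 fold change −3.601, standard error 0.48, edgeR adjusted p = 0.00393). Thor, the translational repressor 4E-BP and a known foxo target, had 25.7, 38.3 and 42.9 CPM versus 149.9, 383, 164 and 100.4 (log2 fold change −2.51, edgeR adjusted p = 0.01204), and ImpL2, a secreted protein that binds insulin-like peptides, 115, 68.4 and 60.001 against 188 to 462 (log2 fold change −2.03, edgeR adjusted p = 0.00934). The 3 genes stood below brat-KD in every library, which for ImpL2 was a condition of its choice. The insulin receptor InR had 36.04, 65.8 and 54.5 CPM versus 141 to 177 (log2 fold change −1.58, edgeR adjusted p = 0.00662), and Pdk1, a kinase downstream of it, fell by 1.596 (edgeR adjusted p = 0.00853). The raised members were scyl and chrb, the fly REDD1 proteins that restrain TOR, with 342, 419 and 383 CPM versus 115 to 174 and 138, 167 and 149.8 against 70.7 to 81.5 (log2 fold changes 1.31 and 0.96, edgeR adjusted p = 0.005205 and 0.0108). These 7 calls held with every library left out in turn.

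Some genes of nutrient uptake and nucleotide synthesis fell. Of 10 amino acid transporters and related genes, 4 fell and none rose, with a median of −1.23, and 4 of 11 fell without replicate 1. path, a transporter of the SLC36 family, had 129.8, 121 and 225 CPM versus 784 to 1222 in brat-KD and 120.3 to 176 in control NB II (log2 fold change −2.703, standard error 0.28, edgeR adjusted p = 0.002399), and mnd, a leucine transporter (3L:14985100-14991667 in BDGP6), 17.4, 42.4 and 72.1 against 239 to 419.6 (log2 fold change −2.9996, edgeR adjusted p = 0.00591). In both, every library with the brat-KD/Spt5-KD label was below every brat-KD library, as their choice required. JhI-21, a further amino acid transporter, fell by 1.31 (edgeR adjusted p = 0.00376). Gart, a trifunctional enzyme of purine synthesis (2L:7014623-7023898 in BDGP6), had 50.4, 59.5 and 99.8 CPM versus 316 to 417 and 83.2 to 87.9 in control NB II (log2 fold change −2.396, standard error 0.27, edgeR adjusted p = 0.002399). The 8 purine genes went both ways, with 2 raised and 3 lowered, as many as without replicate 1. ras, an IMP dehydrogenase that overlaps 3 genes, and bur, a GMP synthetase, fell by 1.03 and 0.77, while Adsl, adenylosuccinate lyase, and Paics rose by 1.29 and 0.98 (edgeR adjusted p = 0.00668, 0.0483, 0.00908 and 0.0203). The fall of bur was lost without any 1 library other than brat-KD/Spt5-KD replicate 1, and the rise of Paics without brat-KD/Spt5-KD replicate 3 or brat-KD replicate 1, 3 or 4. In pyrimidine synthesis r, the enzyme of the first steps of the pathway, had 111, 119.7 and 96.3 CPM versus 271 to 354 (log2 fold change −1.54, edgeR adjusted p = 0.002399). Of 10 genes of pyrimidine and dNTP synthesis 1 rose and 2 fell, and 1 rose and 3 fell without replicate 1.

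Sugar metabolism held opposite changes. Gapdh2, glyceraldehyde-3-phosphate dehydrogenase, had 1043, 1235 and 1095 CPM versus 379.9 to 678 in brat-KD and 177 to 248 in control NB II (log2 fold change 1.15, edgeR adjusted p = 0.0169). Ldh, lactate dehydrogenase, had 71.4, 149 and 123 against 264 to 394 and 9.71 to 13.05 (log2 fold change −1.51, edgeR adjusted p = 0.0117). These were the only calls among 12 glycolytic enzymes, and without replicate 1, 6 rose and 1 fell. Both enzymes remained above control NB II in every library. Gapdh2 lost the call without brat-KD replicate 1 or brat-KD/Spt5-KD replicate 2. Tret1-1, a trehalose transporter, fell by 1.93 (edgeR adjusted p = 0.002399).

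Some genes of cell death and DNA repair rose. Of 18 genes of cell death and p53, 5 rose and none fell, and without replicate 1, 5 rose and 2 fell. Gadd45, a stress-inducible gene (FBgn0033153), had 65.5, 62.8 and 62.02 CPM versus 13.6, 18.97, 10.7 and 8.96 in brat-KD and 3.96 to 7.06 in control NB II (log2 fold change 2.26, standard error 0.35, edgeR adjusted p = 0.00634). Its 3 libraries agreed within a few CPM, replicate 1 included. rpr, a proapoptotic antagonist of Diap1, had 32.5, 31.2 and 17.6 CPM versus 2.903 to 3.896 (log2 fold change 2.99, edgeR adjusted p = 0.00913), and egr, the fly TNF ligand, which overlaps 4 genes, 55.8, 100.3 and 41.8 against 9.995 to 22.4 (log2 fold change 2.14, edgeR adjusted p = 0.0153), a call lost without brat-KD/Spt5-KD replicate 2 or brat-KD replicate 1 or 3. Marf, a mitofusin that joins mitochondria, had 168, 133 and 132 CPM versus 196 to 204 (log2 fold change −0.48, edgeR adjusted p = 0.08702, and 0.0211 without replicate 1). The effector caspase Dcp-1 had 31.8, 27.7 and 54.96 CPM versus 47.8 to 59.5 and did not pass the test (log2 fold change −0.52, edgeR adjusted p = 0.317). The count of raised death genes was 3 without replicate 2, 5 without replicate 3 and 4 to 5 without any 1 brat-KD library. Among 18 DNA damage genes, 3 rose, namely mre11 and nbs, partners in a complex that senses double-strand breaks, and PolZ1, a translesion polymerase, by 1.24, 1.54 and 0.96. grp, the checkpoint kinase Chk1, which overlaps 17 genes, fell by 1.26 (edgeR adjusted p = 0.00622), and without replicate 1, 4 of the list rose and 2 fell. nbs lost the call without any 1 brat-KD library and PolZ1 without brat-KD replicate 1 or 2, while mre11 and grp kept theirs with every library left out.

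Chaperone genes were called in both directions. Of 22 heat shock proteins, 3 fell and none rose (7 without replicate 1), with Hsp83, the cytosolic Hsp90, at 3407, 3089 and 4037 CPM versus 7669 to 9271 (log2 fold change −1.27, edgeR adjusted p = 0.00918). Of 15 genes of the unfolded protein response, 3 rose and none fell (5 rose without replicate 1), with Gp93, the Hsp90 of the endoplasmic reticulum, at 1542, 1831 and 1780.4 CPM versus 672 to 780.2 (log2 fold change 1.26, edgeR adjusted p = 0.00372). Both kept the call with every library left out. The other fallen heat shock genes, Hsp22 and Hsp67Ba, lost it without brat-KD/Spt5-KD replicate 2 or brat-KD replicate 1 or 3, among others, and the other raised genes, Calr and Sec61gamma, without brat-KD/Spt5-KD replicate 3 or brat-KD replicate 1, 2 or 4. The difference between the lists was not tested.

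Markers of other cell types were read in the same libraries. Of 12 tested genes of hemocytes and basement membranes, 5 rose and none fell (without replicate 1, 6 rose and 2 fell, and the raised count was 3 to 4 without any 1 brat-KD library), and the summed CPM of all 18 on the list was 965, 916 and 562 in replicates 1, 2 and 3 against 165 to 226 in brat-KD and 245 to 330.3 in control NB II. LanA, a laminin chain, had 466, 513 and 249.6 CPM versus 28.5 to 61.1 (log2 fold change 3.21, standard error 0.33, edgeR adjusted p = 0.002399), and trol, the fly perlecan, which overlaps 3 genes, 136, 139 and 85.2 against 22.5 to 38.01 (log2 fold change 2.03, edgeR adjusted p = 0.004105). Of the defining hemocyte markers, He, NimC1 and eater had no count in any of the 7 libraries, and Hml had 16.02, 8.23 and 6.55 CPM versus 0 to 0.349, an increase of at least 21.3-fold (edgeR adjusted p = 0.0157) that was lost without brat-KD replicate 2, 3 or 4. The part of other cells in these increases was not tested. The summed CPM of 29 neuronal genes was 1347, 1213 and 927 against 802 to 1028, and 3 of 28 tested rose and none fell, a share of 10.7% against 5.91% of all genes. The list was split, with 15 fold changes above 0 and 13 below and a median of 0.21. Without replicate 1, 4 of 28 rose and 1 fell, where 13.6% of all genes rose and 12.7% fell. Snap25, a SNARE of synaptic vesicle release that overlaps 12 genes, had 371, 361 and 221 CPM versus 63.6 to 148, and para, a sodium channel that overlaps 4, 91.4, 119 and 72.1 against 20.1 to 30.3 (log2 fold changes 1.57 and 1.84, edgeR adjusted p = 0.0157 and 0.00533). Snap25 lost the call without brat-KD/Spt5-KD replicate 2 or brat-KD replicate 4.

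DIP-alpha, an immunoglobulin protein through which neurons recognize each other, had 3462, 3349.7 and 7464 CPM versus 308 to 499.9 in brat-KD and 1032 to 1732 in control NB II (log2 fold change 3.64, standard error 0.34, edgeR adjusted p = 0.00218). It overlaps 5 genes, whose reads its count can hold. Of 18 dpr and DIP genes tested, 3 rose and none fell, a count that was 8 of 20 without replicate 1, 2 without replicate 2, 3 without replicate 3 and 1 to 2 without any 1 brat-KD library. Of 35 axon guidance and adhesion genes, 5 rose and 2 fell, or 14.3% and 5.71% against 5.91% and 5.71% of all genes. Genes of their length bins fell in 14.8% of cases. Without replicate 1, 5 rose and 7 fell, where 13.6% of all genes rose and 12.7% fell. side, a ligand that guides motor axons, had 73.01, 24.04 and 60.5 CPM versus 4.19 to 10.3 (log2 fold change 2.597, edgeR adjusted p = 0.0139), and Nrt, a cell adhesion protein, 394, 401 and 383 against 694 to 875 (log2 fold change −0.999, edgeR adjusted p = 0.00634). The list thus held calls in both directions, and with all 3 libraries its lowered share was that of all genes. Of 22 imaginal disc and epithelial genes, 4 fell and none rose (9 and 1 without replicate 1), among them the homeobox genes ct and Dll, with 76.1, 97.7 and 94.3 CPM versus 199 to 283 and 28.03, 41.8 and 49.9 against 90.6 to 119.7 (log2 fold changes −1.47 and −1.45, edgeR adjusted p = 0.00396 and 0.00984). Genes of the same length bins fell in 11.6% of cases against 18.2% of this list. spok, an enzyme of ecdysone synthesis in the ring gland, had 79.4, 25.98 and 76.1 CPM versus 1.22 to 8.05 (log2 fold change 3.65, edgeR adjusted p = 0.0108). It was the only gene called of 3 tested on the list of ring gland genes, with and without replicate 1. Fold changes of the 3 were above 0 in 2 and below 0 in 1. NPF and jhamt of the same list had no count in any of the 7 libraries. The summed CPM of 16 glial genes was 576, 589.6 and 551 against 517 to 618, and 1 of 12 tested fell. The summed CPM of 10 fat body genes was 97.7, 178 and 143 against 273 to 399 in brat-KD. Most of that sum is Ldh, the only fallen gene of the 4 tested, so that the sum mainly follows Ldh. Fold changes of the 4 were above 0 in 2 and below 0 in 2 (median 0.078). Without replicate 1 they were above 0 in 3 and below 0 in 1 (median 0.69). Lsp1alpha of the same list had no count in any of the 7 libraries. Without replicate 1, 1 glial and 1 fat body gene rose and 1 of each list fell.

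**Figure D4:**
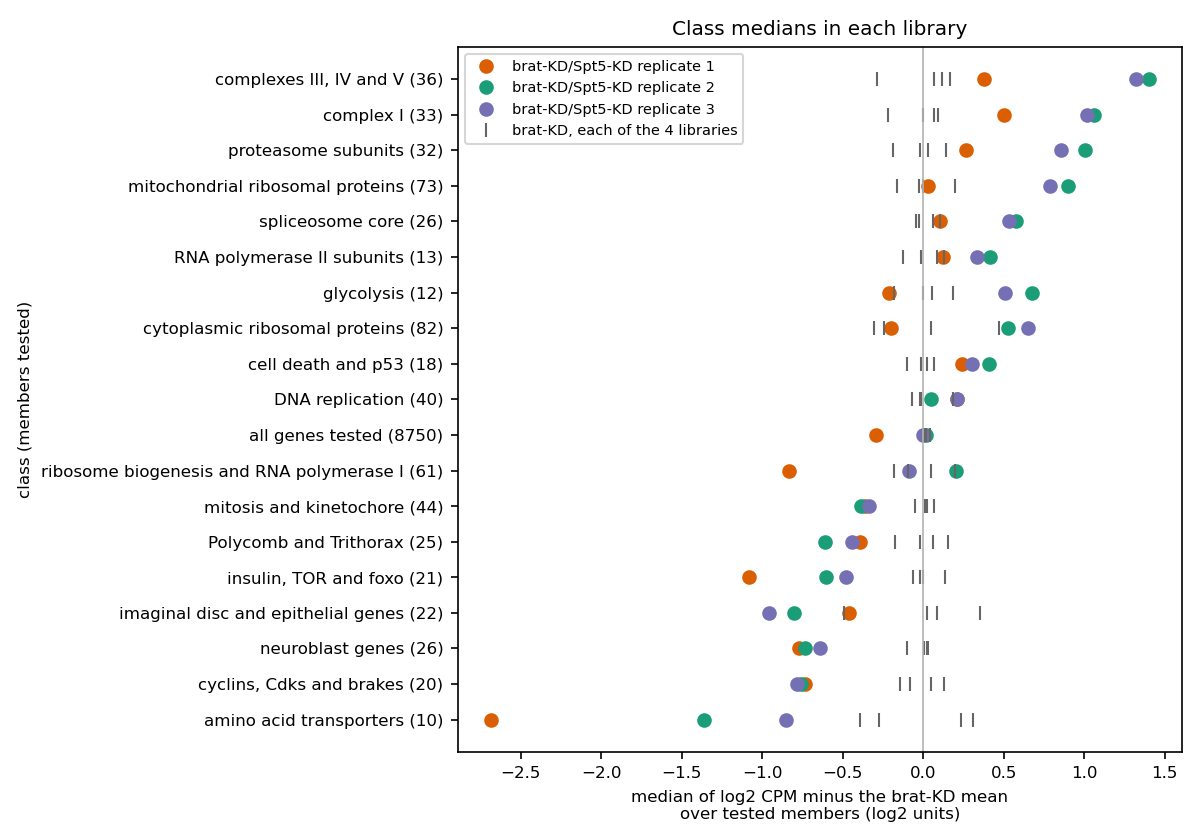
Filled circles give the median over the tested members of a class of log2 CPM minus the brat-KD mean, for each library with the brat-KD/Spt5-KD label, and ticks give the same for each brat-KD library. The number of tested members is in parentheses. In the respiratory classes, the proteasome and mitochondrial ribosomal proteins, replicates 2 and 3 lie together above brat-KD and replicate 1 lies nearer to brat-KD, while all 3 libraries lie together below brat-KD in neuroblast genes and cyclins.

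Replicate 1 of brat-KD/Spt5-KD stood apart in its set of detected transcripts. Over all genes tested its median log2 CPM lay 0.29 below the brat-KD mean, where those of replicates 2 and 3 lay within 0.02 of it. Of 2879 genes with at least 50 CPM in both other replicates, 31 had no read in replicate 1, although 50 CPM would be about 212 reads there. The same count was 0 for replicates 2 and 3 and for each brat-KD library, and 2 of 3102 for control replicate 1. Among the 31 genes were ox, of respiratory complex III, with 0, 93.5 and 98.3 CPM, and the mitochondrial ribosomal proteins mRpL28 with 0, 99.8 and 84.2 and mRpL40 with 0, 76.01 and 80.2. Others were Uba3, an enzyme of neddylation, with 0, 63.01 and 108 CPM, nero, an enzyme of hypusine synthesis, with 0, 100.04 and 73.1, and Upf1, a helicase of nonsense-mediated decay, with 0, 87.7 and 62.5. In brat-KD the same 6 genes had 25.4 to 50.3, 126 to 177, 25.1 to 40.5, 50.6 to 65.05, 66.5 to 74.4 and 89.6 to 118 CPM. They were thus expressed in every other library of both genotypes. The Spt5 partner spt4 was another gene without a read in replicate 1. None of the 31 was called with all 3 libraries, and 13 were called without replicate 1.

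On the other side were genes that replicate 1 alone held at a high level. Of 4533 genes whose mean log2 CPM was 5 or more, 259 lay more than 1 log2 unit above both other replicates and 747 more than 1 below both, and by more than 2 units the numbers were 16 and 253. Dlg5, a scaffold protein of cell polarity, had 115, 14.9 and 15.6 CPM, Egfr, the EGF receptor, 108, 19.3 and 24.2, and Dys, dystrophin, 126, 20.6 and 23.7. In brat-KD they had 43.4 to 61.6, 50.1 to 66.6 and 73.2 to 133 CPM. Replicate 1 was above or near the top of the brat-KD range for these genes and replicates 2 and 3 below it. Egfr, Dys and nwk overlap 5, 3 and 3 genes. bowl, a zinc finger factor, had 93.7, 6.93 and 17.6 CPM versus 15.6 to 44.5, and nwk, a synaptic adaptor, 117, 1.299 and 23.2 against 3.49 to 83.5 and 24.8 to 98.7 in control NB II. Among the 517 raised genes, replicate 1 was the highest of the 3 libraries in 206 and the lowest in 195. Among the 500 lowered ones, it was the highest in 154 and the lowest in 241. Of 736 genes called raised only without replicate 1, it lay within the brat-KD range in 275, below it in 238 and above it in 223. The same numbers for 661 genes called lowered only without it were 164, 379 and 118.

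**Figure D5:**
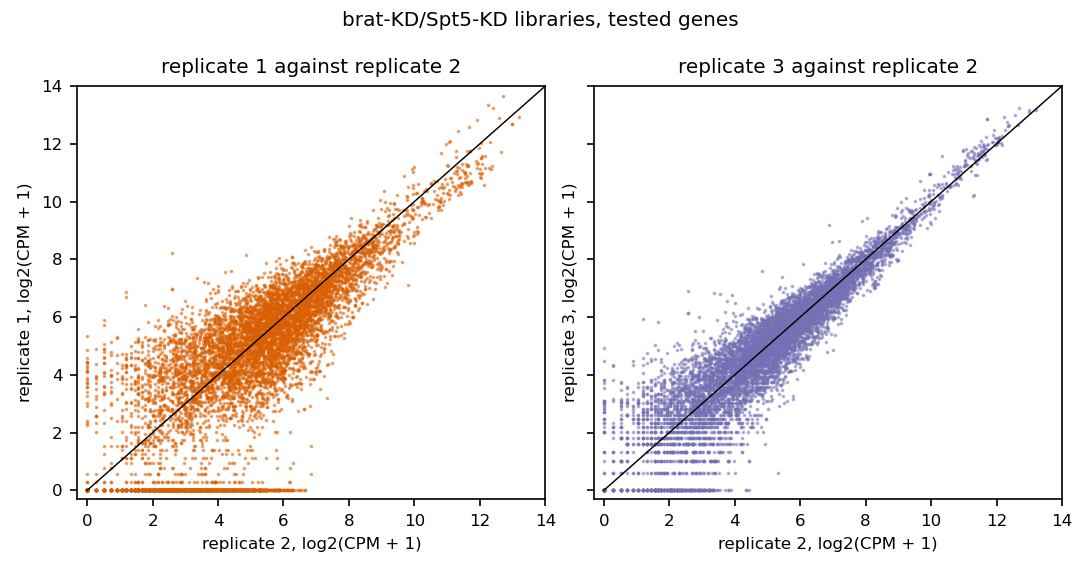
Each point is 1 of 8750 tested genes, with log2(CPM + 1) in brat-KD/Spt5-KD replicate 2 on the horizontal axis and in replicate 1 (left) or replicate 3 (right) on the vertical axis. The line marks equal values. On the left, genes at 0 in replicate 1 run along the bottom up to values above 6 in replicate 2, and on the right the points keep closer to the line.

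RNA classes differed between the genotypes as well. Genes annotated as pseudogenes, mainly ribosomal RNA fragments, held 5.54, 2.77 and 3.58% of the counts in brat-KD/Spt5-KD replicates 1, 2 and 3, against 0.678 to 1.61% in brat-KD and 2.33 to 3.904% in control NB II. Genes annotated as ribosomal RNA held 1.47, 0.661 and 0.915% against 0.0842 to 0.375%. All 3 libraries were above every brat-KD library in both classes. Their part in the results above was not tested. The labels state 17 or 24 cycles of library amplification without saying which library had which.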

How the data were processed

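RNA was measured in GFP-positive cells sorted by side scatter, forward scatter and GFP intensity from dissociated larval brains. Libraries were made from poly(A) RNA with a directional kit, amplified for 17 or 24 cycles and sequenced for 75 cycles, and reads were aligned with bowtie2 to BDGP6. The authors deposited raw counts per gene, not normalized, for 17676 genes in 10 libraries. The submitters' processing notes name FastQC, edgeR 3.26.8 and dm6. The read counter, its strand setting and its annotation are not given in the sources used here. Libraries were grouped by genotype label.

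The counts of the 7 libraries were fitted in edgeR 4.0.16 (R 4.3.3) with TMM factors, filterByExpr and the quasi-likelihood test, and a gene was called at a Benjamini-Hochberg adjusted p under 0.05. Total counts of 2158058 to 7409954 set the precision. A log2 fold change of a gene near 0 in a group depends on the prior count, and against a group with at most 3 counts in each library the fold was taken against 3 counts as a lower bound. Positions, lengths and RNA classes came from the Ensembl 115 annotation (BDGP6.54), which held 17549 of the genes. The fit was tested on simulated data.

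Genes were described by 52 lists, 9 of them of cell type markers, as counts and medians with no set test. Both the comparison and the lists were chosen with earlier results of these data known. Named genes were the 10 largest non-overlapping changes in each direction called with and without replicate 1 (mean log2 CPM of at least 5), up to 3 members of a list in each direction, genes the study names, and 10 genes each that were highest or lowest in replicate 1 alone. List members named as raised or lowered had to be called, with mean log2 CPM of at least 3 and no overlap between the libraries of the genotypes. The Y-linked genes other than kl-5 and the genes spt4, Hml, InR, Pdk1, JhI-21, RpL22-like, ph-d, ash2 and trr fall outside this rule and were chosen after their values were seen. Alternatives were DESeq2 1.42.0, other size factors, filters and tests, all 3 genotypes in one fit, a replicate block, genes with no overlapping gene, and each library left out.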

Additional observations from a re-analysis of the deposited data

Results flagged for a closer look

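For the genes named, the 4 brat-KD libraries were examined for a highest or lowest library far from the other 3, by Dixon's ratio at its 95% critical value, which chance passes in about 1 of 20 groups. Of 151 genes, 8 passed, a share near that rate. Myc had 567 CPM in brat-KD replicate 1 against 389.6 to 417 in the other 3 libraries, and its call was lost without that library. mars had 254 CPM in brat-KD replicate 4 against 338 to 350.4, and Non1, also in replicate 4, 1006 CPM against 1686 to 1765. In the same library ox was the highest, at 50.3 CPM against 25.4 to 28.9. side had 4.19 CPM in brat-KD replicate 1 against 9.63 to 10.3, Atg3 had 26.7 CPM in brat-KD replicate 3 against 38.1 to 40.2, and Marf had 204 CPM in brat-KD replicate 3 against 196.3 to 196.9. Col4a1 had 0 CPM in brat-KD replicate 2 against 1.06 to 1.22. Groups of 3 libraries, brat-KD/Spt5-KD included, are too small for this ratio.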

How the results depend on the processing

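Against 517 raised and 500 lowered genes, DESeq2 gave 925 and 814, and genes with no overlapping gene alone, of which 3506 were tested, gave 196 and 200. With 1 library left out in turn the counts ran from 195 to 1247 raised and 139 to 1161 lowered, the highest without brat-KD/Spt5-KD replicate 1 and the lowest without brat-KD replicate 1. Other size factors, total counts, other filters, edgeR's exact test and all 3 genotypes in 1 fit kept both counts within 1.5 times. The replicate block gave 1 raised gene, CR10102, and 0 lowered. Deviations of same-numbered libraries of both genotypes correlated at −0.018, 0.089 and −0.012 for replicates 1, 2 and 3. Those of differently numbered libraries correlated at −0.074 to 0.035. The labels do not say whether same-numbered libraries belong together, and correlations over so few pairs cannot decide it. Why calls were lost under the block was not tested. Of 151 named genes, 128 were called, and 73 of these calls held under every alternative but the block. No called gene changed direction. Among genes that were not called, 11 changed sign when single libraries were left out, over these ranges of the log2 fold change: Dlg5 (−1.81 to 0.27), Egfr (−1.44 to 0.16), FDY (−0.28 to 0.24), Ppr-Y (−0.25 to 0.033), Uba3 (−0.82 to 0.60), bowl (−1.59 to 0.63), brat (−0.021 to 0.57), kl-2 (−0.20 to 0.14), nero (−1.04 to 0.29), nwk (−1.67 to 1.34) and spt4 (−0.12 to 1.03). Uba3 was at 0.021 in DESeq2, at 0.012 with its size factors in edgeR and in the exact test and at 0.017 with 3 genotypes in 1 fit. Under the replicate block, bowl was at −0.41, mRpL40 at −0.48, nwk at −0.043 and spt4 at −0.30. The cause of these shifts was not tested. With 2158058 counts in the shallowest library, a gene at 1 CPM rests on about 2 reads there.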

Other observations

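Several gene groups not described above held a few changed genes. Of 21 glutathione S-transferases tested, 3 rose and 1 fell in libraries with the brat-KD/Spt5-KD label (14.3% and 4.76%, against 5.91% and 5.71% of all genes). GstE12 had 105, 33.6 and 32.3 CPM in replicates 1, 2 and 3 against 5.01 to 6.81 in brat-KD and 8.404 to 49.6 in control NB II (log2 fold change 3.23, standard error 0.50, edgeR adjusted p = 0.00659), a call kept with every library left out in turn. The raised count was 6 of 24 without replicate 1, 2 without either replicate 2 or replicate 3 and 1 to 2 without any 1 brat-KD library. Of 36 translation initiation factors 2 rose and 2 fell, 5.56% in each direction and near the share of all genes, and 4 rose and 4 fell without replicate 1. eIF1, which acts in start codon selection, had 361, 429 and 344 CPM versus 162 to 184 (log2 fold change 1.13, edgeR adjusted p = 0.00428), and eIF4G2 had 57.2, 79.3 and 58.5 against 143 to 222 (log2 fold change −1.59, edgeR adjusted p = 0.00558). All libraries of the genotypes stood apart for both factors, as their choice required.

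In one-carbon metabolism, Ahcy, which breaks down S-adenosylhomocysteine, had 444, 735 and 690.3 CPM versus 229 to 326 (log2 fold change 1.18, edgeR adjusted p = 0.0111), and Sam-S, which makes S-adenosylmethionine, 173, 244 and 277 against 437 to 494 (log2 fold change −1.02, edgeR adjusted p = 0.01303). Every library of one genotype lay apart from those of the other for both genes, a condition of their choice. Of 110 core histone genes tested, 2 rose, or 1.82% against 5.91% of all genes. They were His3.3A and His3.3B, which code for the replication-independent histone H3.3, with log2 fold changes of 0.98 and 0.79. The replication-dependent histone genes are near-identical copies, and their counts are uncertain. In autophagy, Atg8a and Atg3 rose, 2 of 19 genes (10.5% against 5.91% of all genes), by 0.81 and 1.203. Of 14 genes of lipid synthesis, Desat1, a fatty acid desaturase, and SREBP, a transcription factor of lipid synthesis, fell by 0.95 and 0.68 (14.3% against 5.71% of all genes). Among 33 aminoacyl-tRNA synthetases 1 fell (3.03%) and none rose. None of 8 CCT chaperonin subunits, 19 cytochrome P450 genes or 6 genes of innate immunity passed the test. Of 15 stress response genes 1 fell (6.67%), as did 1 of 22 Notch pathway genes (4.55%) and 1 of 9 elongation factors (11.1%), against 5.71% of all genes. Without replicate 1, the lists gave 3 raised histone genes, 2 raised and 2 lowered autophagy genes, 4 lowered genes of lipid synthesis, 2 lowered synthetases, 2 raised chaperonin subunits, 1 raised and 1 lowered cytochrome P450, 1 lowered gene of innate immunity, 2 raised and 2 lowered stress response genes, 3 lowered Notch pathway genes, 1 lowered elongation factor, and 1 raised and 2 lowered genes of one-carbon metabolism. In that fit 13.6% of all genes rose and 12.7% fell. The calls of eIF1, eIF4G2, Ahcy and Atg8a held with every library left out in turn. That of Sam-S was lost without brat-KD replicate 1 (adjusted p = 0.0514), and those of His3.3A, His3.3B, Atg3, Desat1 and SREBP were lost without brat-KD replicate 1, 2 or 4, among other libraries (adjusted p up to 0.119).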
